A study of Mus musculus with 10 samples.

Results

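The 10 genes of H3K9 methylation and heterochromatin, which write, read or remove methylation of lysine 9 of histone H3 (H3K9), or recruit those activities, were followed through the cell populations of the mouse testis. They were chosen by name, with earlier results of these data known. They are 10 of the 28125 genes of the scRNA-seq matrix and of the 30670 genes of the scATAC-seq matrix, and all 10 were present in both. The writers were Ehmt1, Ehmt2, Suv39h1, Suv39h2 and Setdb1, the readers Cbx1, Cbx3 and Cbx5, the demethylase Kdm3a and the corepressor Trim28. Nuclei of whole testes of C57BL/6J wild-type mice at 11, 17 and 25 dpp (days post partum), and of 8-week-old mice of the genotypes Cre/+ and Nfya-CKO, were read by scRNA-seq and scATAC-seq together. Cre/+ mice carried the Stra8-Cre allele alone, in which the Stra8 promoter drives Cre. Nfya-CKO mice carried it with floxed Nfya, so that part of Nfya, which encodes the DNA-binding subunit of the transcription factor NF-Y, was deleted in germ cells that had switched on Stra8, while somatic cells and younger germ cells kept the gene. There was 1 library per condition and assay, so no difference below has a replicate check and no p-value was computed.

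H3K9 methylation marks silent chromatin. The EHMT1 and EHMT2 enzymes (GLP and G9a) work as a heterodimer and place mono- and dimethylation in euchromatin, SUV39H1 and SUV39H2 place trimethylation at pericentric heterochromatin, and SETDB1 is brought to retrotransposons by TRIM28 (KAP1) and its KRAB zinc finger partners. The heterochromatin proteins HP1β, HP1γ and HP1α, encoded by Cbx1, Cbx3 and Cbx5, bind the methylated lysine, and KDM3A removes mono- and dimethylation. In the male germ line this system is known for keeping transposons silent, for pairing and synapsis in early meiosis, and for the silenced sex chromosomes of pachytene spermatocytes.

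The deposited matrices pool the libraries into 13 populations. The 9 germ cell populations are spermatogonia, undifferentiated (undiff. SpG) or differentiating (diff. SpG), then spermatocytes, which are preleptotene (pL, not yet in prophase I) or, in prophase I, early leptotene to zygotene (eL/L/Z), leptotene to early pachytene (L/Z/eP), middle to late pachytene (mP/lP) and diplotene (D), and last the spermatids, round (RS) or elongating (ES). The others are spermatogonia from the library with that label (SpG Nfya-CKO), Sertoli cells, other somatic cells and 99 cells without a name. The RNA level is the mean over cells of UMIs (unique molecular indices) per 10000, and accessibility is the signal of a gene after the sum over genes was set to 1000000 in each population. Populations were called apart for RNA at a ratio of at least 2-fold with 0.1 added to each level, and for accessibility at 1.5-fold with 1 added. Log2 ratios are on this scale, with the 0.1 or 1 added, while folds of a level are ratios of the printed levels with nothing added. Intervals in parentheses are 95% Poisson intervals of the UMIs behind a level and cover counting error only. The members were compared with each other only through changes of their ratio, since levels were not scaled by gene length. Levels of overlapping genes and of pi-Cbx5.1 are set beside those of a member without such scaling.

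Several populations need care. The scRNA-seq cells share barcodes between libraries: 3813 barcodes, 74.0% of the Nfya-CKO cells, were also present in the Cre/+ library. Of these, 2653 had over 3 times as many UMIs in Cre/+ and 1157 over 3 times as many in Nfya-CKO, with 3 in between. Cells whose barcode had over 3 times as many UMIs in another library made up 56.7% of ES (676 cells, 675 of them with an Nfya-CKO counterpart named other somatic), 51.7% of other somatic cells, 21.7% of eL/L/Z and 15.6% of diff. SpG. In diff. SpG, 143 of the 144 such cells had an Nfya-CKO counterpart named SpG Nfya-CKO. Low-count cells of this kind made up at most 3.14% of the other germ cell populations, none of SpG Nfya-CKO and 0.245% of Sertoli cells. Because the matrices are pooled over cells, levels could not be recomputed without these cells, and counts are also given without diff. SpG and ES and without eL/L/Z as well. The populations differ in age as well: cells of 8-week-old mice were 0.341% of pL, 2.62% of L/Z/eP, 27.9% of mP/lP, 77.1% of RS and 99.7% of ES, and 84.6% of diff. SpG but 7.98% of undiff. SpG. Nfya RNA stood at 1.11 in SpG Nfya-CKO against 0.456 in undiff. SpG, while Nfya accessibility was lower, at 58.7 against 83.1. Reads outside the deleted exons do not test a deletion, so the RNA level does not check the label, and the library is called by its label. Of its 5152 cells, 491 were named SpG Nfya-CKO and 4633 other somatic, with none in pL, L/Z/eP, mP/lP, RS or ES, 4 in eL/L/Z and 4 in D.

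The promoters that hold the core of the NF-Y motif are shown here because the mutant library concerns NF-Y. CCAAT or its reverse complement ATTGG was searched on the RefSeq promoters (GRCm38.p6, 250 bases before to 50 after a start site, shown 5′ to 3′ on the strand of the gene). It was present in 4 of the 10 genes and 4 of their 16 promoters, against 41.1% of all genes and 37.4% of all promoters. Capitals mark the matches, which lie 128 and 75 bases before the start site of Kdm3a (chr6:71632868-71633167, minus strand), 120 and 74 before that of Suv39h1 (chrX:8074711-8075010, minus), 24 before that of Cbx5 (chr15:103239803-103240102, minus) and 249 before that of Setdb1 (chr3:95357153-95357452, minus).
Kdm3a: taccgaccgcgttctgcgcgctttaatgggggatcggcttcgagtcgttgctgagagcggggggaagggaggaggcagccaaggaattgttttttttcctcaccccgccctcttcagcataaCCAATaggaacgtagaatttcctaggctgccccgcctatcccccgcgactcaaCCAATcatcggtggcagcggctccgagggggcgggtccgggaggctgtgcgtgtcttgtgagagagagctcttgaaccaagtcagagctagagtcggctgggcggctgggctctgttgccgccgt
Suv39h1: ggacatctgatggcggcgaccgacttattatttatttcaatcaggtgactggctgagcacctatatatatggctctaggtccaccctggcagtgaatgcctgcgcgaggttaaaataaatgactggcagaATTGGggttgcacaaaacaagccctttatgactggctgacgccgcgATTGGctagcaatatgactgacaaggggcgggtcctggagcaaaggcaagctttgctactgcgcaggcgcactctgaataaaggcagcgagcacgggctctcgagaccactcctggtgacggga
Cbx5: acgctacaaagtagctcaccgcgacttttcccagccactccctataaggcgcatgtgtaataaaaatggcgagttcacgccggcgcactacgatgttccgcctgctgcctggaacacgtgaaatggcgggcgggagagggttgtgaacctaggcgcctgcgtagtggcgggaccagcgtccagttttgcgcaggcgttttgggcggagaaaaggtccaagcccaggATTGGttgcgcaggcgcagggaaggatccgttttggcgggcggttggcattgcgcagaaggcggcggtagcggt
Setdb1: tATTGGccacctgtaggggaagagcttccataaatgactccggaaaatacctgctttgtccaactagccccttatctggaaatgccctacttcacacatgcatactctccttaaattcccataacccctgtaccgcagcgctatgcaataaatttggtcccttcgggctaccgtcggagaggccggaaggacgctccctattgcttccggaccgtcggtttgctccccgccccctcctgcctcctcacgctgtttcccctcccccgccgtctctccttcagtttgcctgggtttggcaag

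The 10 genes did not share a single course (plot of RNA levels by population). Among the 9 germ cell populations, RNA was highest in pL for Ehmt1, Suv39h2 and Cbx1, and in undiff. SpG for Ehmt2, Suv39h1 and Cbx3. It was highest in eL/L/Z for Setdb1, in diff. SpG for Cbx5, in mP/lP for Kdm3a and in ES for Trim28. Thus 6 of 10 peaked in undiff. SpG or pL, where 19.2% and 17.8% of the 15250 genes tested peaked. For Suv39h1, Cbx3 and Cbx5 the intervals of the highest population and the next overlapped. Over all 13 populations Suv39h1 was highest in SpG Nfya-CKO, at 1.36 (1.28 to 1.44). With 0.1 added, the highest and lowest germ cell populations lay at least 2-fold apart for 9 genes, against 80.9% of all genes, and at least 4-fold apart for 5, against 32.5%. All 10 passed the filter on low values, a mean of at least 0.05.

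**Figure D1:**
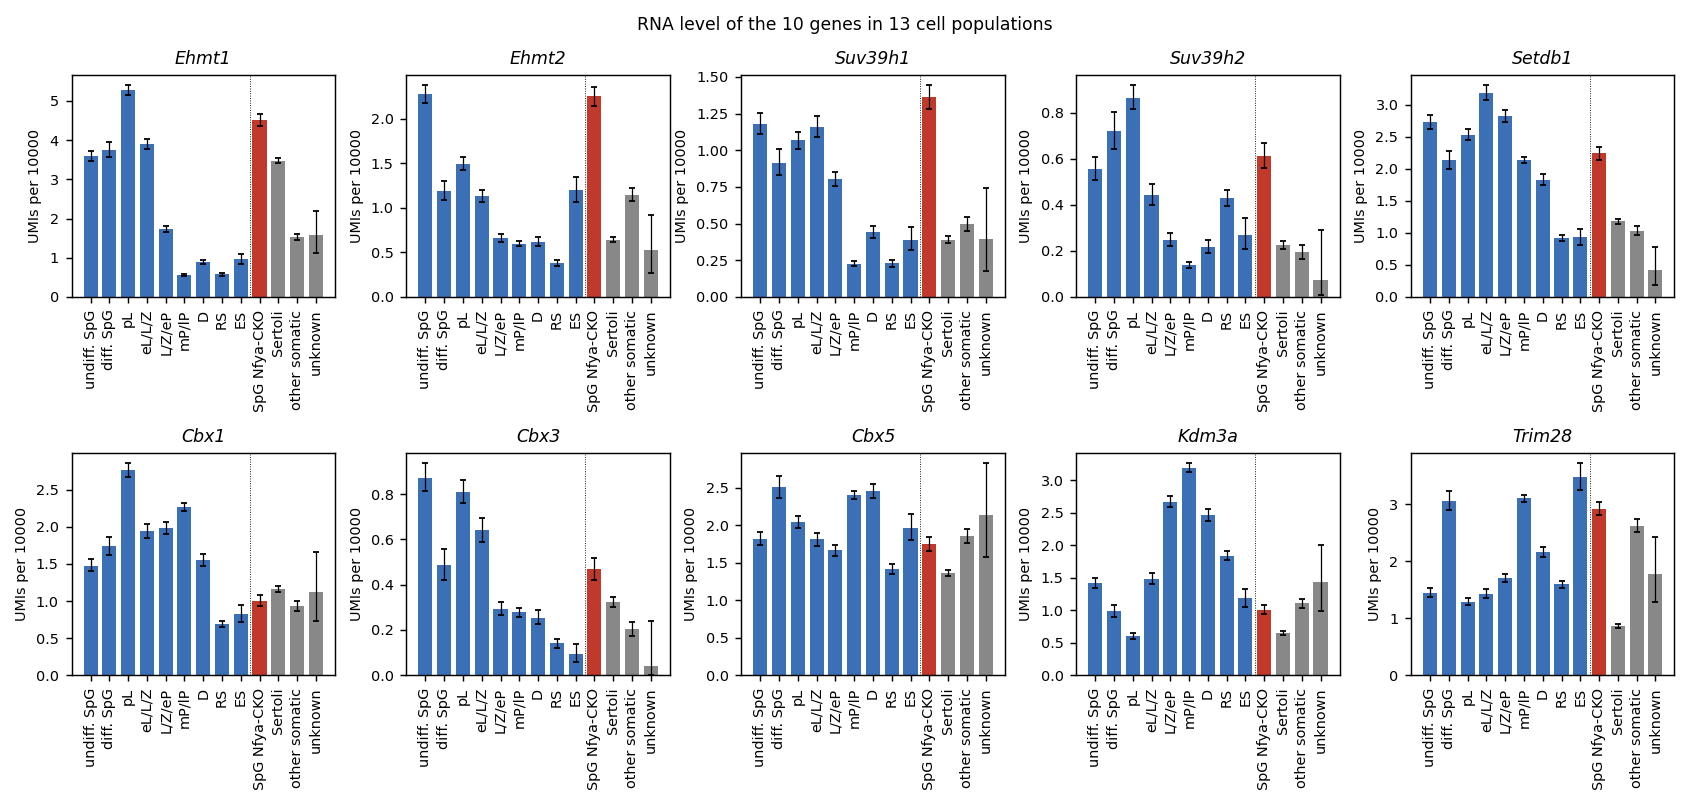
RNA level (UMIs per 10000, linear axis from 0) of each gene in the 13 populations; blue bars are germ cells of the control populations, red the SpG Nfya-CKO and grey somatic or unnamed cells, with 95% Poisson intervals. Ehmt1 falls from 5.27 in pL to 0.548 in mP/lP while Kdm3a goes from 0.606 to 3.20.

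Of the 10 genes, Ehmt1 fell furthest between pL and mP/lP. Its RNA level was 3.59 in undiff. SpG, 3.76 in diff. SpG, 5.27 in pL (5.15 to 5.40), 3.90 in eL/L/Z, 1.72 in L/Z/eP (1.65 to 1.80), 0.548 in mP/lP (0.522 to 0.575), 0.890 in D, 0.582 in RS and 0.964 in ES. The 4 populations up to eL/L/Z all lay above every later one. From pL to mP/lP the level fell 9.62-fold (log2 -3.05), in 2 called steps, to L/Z/eP (log2 -1.13) and to mP/lP (log2 -1.49). At these steps 3.97% and 3.54% of all genes were called lower. The gene lies on chromosome 2 (24789928-24919614, minus strand), so it is autosomal.

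Ehmt2, the partner of Ehmt1, left earlier and by less. Its RNA level was 2.28 in undiff. SpG (2.18 to 2.38), 1.19 in diff. SpG, 1.497 in pL, 1.13 in eL/L/Z, 0.665 in L/Z/eP, 0.595 in mP/lP, 0.622 in D, 0.378 in RS (0.347 to 0.412) and 1.20 in ES (1.07 to 1.34). The levels of L/Z/eP, mP/lP and D had overlapping intervals with their neighbours in order. The ratio of Ehmt1 to Ehmt2, set to 1 in undiff. SpG, was 2.24 in pL, 2.19 in eL/L/Z, 1.65 in L/Z/eP and then 0.585 in mP/lP, so the balance of the 2 transcripts went from above to below that of undiff. SpG between L/Z/eP and mP/lP. Ehmt2 was called higher in ES than in RS (log2 1.44, where 10.1% of all genes were called higher). ES also held 36.6 summed UMIs per 10000 of 5 Sertoli markers against 3.77 in RS and 5.70 of 5 Leydig markers against 0.786, with no marker at 0 in either. Their part in this step was not tested.

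Among germ cell populations, Suv39h1 and Suv39h2 were both lowest in mP/lP, and both were called lower there than in pL (log2 -1.84 and -2.01). Suv39h1 RNA was 1.18 in undiff. SpG, 0.916 in diff. SpG, 1.07 in pL, 1.16 in eL/L/Z, 0.803 in L/Z/eP (0.753 to 0.854), 0.226 in mP/lP (0.209 to 0.243), 0.442 in D (0.403 to 0.484), 0.229 in RS and 0.391 in ES. The intervals of undiff. SpG and diff. SpG did not overlap, nor did those of eL/L/Z and L/Z/eP, and the called drop fell between L/Z/eP and mP/lP (log2 -1.47). Suv39h1 is the X-linked gene of the 10 (chrX:8061171-8074760, minus strand), and the other 9 are autosomal. At that step the 487 X-linked genes tested had a median log2 ratio of -0.64 and 121 were called lower, none higher, while the 13596 autosomal genes had a median of -0.09. The Suv39h1 level was 3.56-fold lower, and its log2 ratio was below the X-linked median. In D against mP/lP its log2 ratio was 0.74, beside an X-linked median of 0.39, and no member was called at that step, where 4.92% of all genes were called higher and 0.184% lower.

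**Figure D2:**
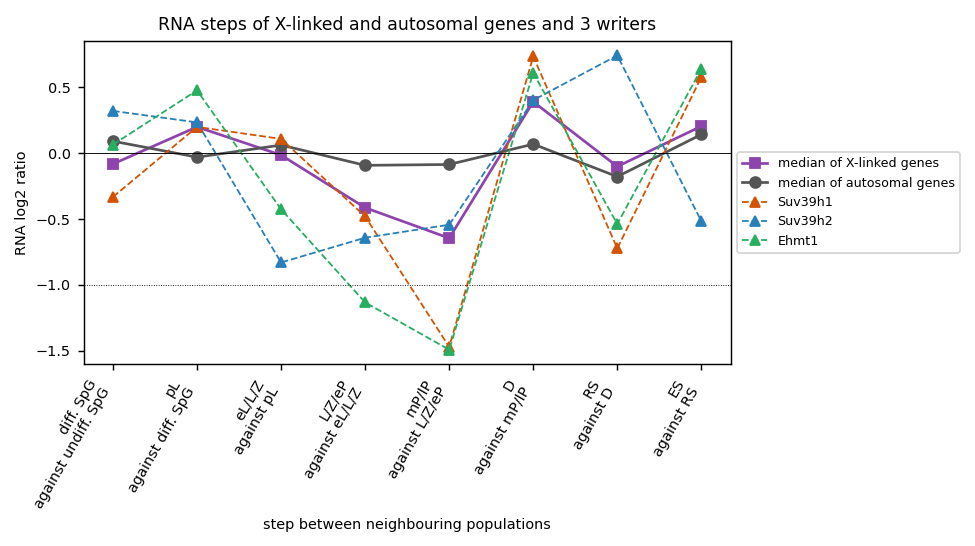
RNA log2 ratio at each of the 8 steps between neighbouring germ cell populations, for the medians of 487 X-linked and 13596 autosomal genes (solid lines) and for Suv39h1, Suv39h2 and Ehmt1 (dashed); the dotted line marks 2-fold lower. Suv39h1 and the autosomal Ehmt1 lie below it at mP/lP against L/Z/eP, at -1.47 and -1.49, and the X-linked median is -0.64.

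Suv39h2, known as the germ line form, was highest in pL. Its RNA level was 0.556 in undiff. SpG, 0.721 in diff. SpG, 0.865 in pL (0.814 to 0.919), 0.443 in eL/L/Z, 0.248 in L/Z/eP, 0.139 in mP/lP (0.126 to 0.153), 0.216 in D, 0.429 in RS (0.396 to 0.465) and 0.270 in ES. The level thus went down 6.22-fold from pL to mP/lP (log2 -2.01) and up 3.09-fold from mP/lP to RS (log2 1.15), a span in which 17.6% of all genes were called higher. It was the only one of the 10 genes called higher in RS than in mP/lP, and its ratio to Suv39h1, set to 1 in undiff. SpG, stood at 1.67 in diff. SpG, 1.72 in pL, 0.810 in eL/L/Z, 0.655 in L/Z/eP, 1.30 in mP/lP, 1.04 in D, 3.98 in RS and 1.46 in ES. Across the 9 germ cell populations the Pearson r of the pair was 0.67. Dclre1c and the antisense Gm13184 overlap the gene. Dclre1c was at 0.291 in pL, 0.468 in mP/lP and 0.525 in RS, the last 2 of them 3.36 and 1.22 times the level of Suv39h2. Gm13184 reached 0.124 in RS, against 0.0136 in pL, and the strand used in counting is not given in the sources used here.

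Setdb1 held its level longest of the writers. Its RNA was 2.74 in undiff. SpG, 2.14 in diff. SpG, 2.54 in pL, 3.19 (3.07 to 3.31) in eL/L/Z, 2.83 in L/Z/eP, 2.14 in mP/lP, 1.83 in D, 0.920 in RS (0.871 to 0.972) and 0.934 in ES. No step was called, and the spread over the germ cell populations was 3.46-fold, between eL/L/Z and RS. From mP/lP to RS the level fell 2.32-fold (log2 -1.13), a span in which 9.36% of all genes were called lower. The overlapping Cers2 was below Setdb1 up to RS (0.235 there) and above it in ES (1.08) and Sertoli cells (1.78).

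Of the HP1 genes, Cbx1 was highest in pL and Cbx3 in undiff. SpG. Cbx1 RNA was 1.48 in undiff. SpG, 1.74 in diff. SpG, 2.76 in pL (2.67 to 2.86), 1.94 in eL/L/Z, 1.99 in L/Z/eP, 2.272 in mP/lP, 1.55 in D (1.48 to 1.63), 0.692 in RS (0.649 to 0.737) and 0.824 in ES. It was the 1 member called between D and RS (log2 -1.06), where 3.34% of all genes were called lower, and relative to the median of all genes at that step it was not called (log2 -0.89). Cbx3 RNA was 0.872 in undiff. SpG (0.812 to 0.936), 0.486 in diff. SpG, 0.811 in pL, 0.640 in eL/L/Z, 0.294 in L/Z/eP, 0.278 in mP/lP, 0.255 in D, 0.140 in RS and 0.0917 in ES (0.0581 to 0.138). Its decline was spread over several steps, none of them called, and added up to log2 -1.27 from pL to mP/lP. The ratio of Cbx1 to Cbx3, set to 1 in undiff. SpG, was 2.11 in diff. SpG, 2.01 in pL and 1.79 in eL/L/Z, then 3.98 in L/Z/eP and 4.83 at mP/lP. RefSeq names 6 Cbx3 pseudogenes, none in the matrix, and the authors kept uniquely aligned reads, so Cbx3 levels may miss reads shared with those copies.

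Cbx5 was the flattest gene. Over the germ cell populations its RNA ran from 1.42 in RS (1.35 to 1.48) to 2.51 in diff. SpG (2.36 to 2.66), a 1.77-fold range. It was 2.40 in mP/lP and 2.46 in D, and lower than in RS in Sertoli cells (1.37). The piRNA precursor pi-Cbx5.1 had 1 to 1.10 times the level of Cbx5 in the 13 populations. Reads counted for both cannot be told apart, so the Cbx5 level may be that of either transcript.

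Kdm3a was lowest in pL and highest in mP/lP. Its RNA was 1.42 in undiff. SpG, 0.988 in diff. SpG, 0.606 in pL (0.563 to 0.652), 1.49 in eL/L/Z, 2.67 in L/Z/eP, 3.20 in mP/lP (3.13 to 3.26), 2.47 in D, 1.84 in RS and 1.19 in ES. In eL/L/Z the 5 Sertoli markers summed to 11.8 UMIs per 10000, 8.20 of them from Clu, against 5.56 in pL and 5.27 in L/Z/eP. None was at 0, and their part in the steps to and from eL/L/Z was not tested. Among germ cell populations pL was the lowest for Kdm3a and Trim28, as for 24.3% of all genes. It was the highest for Ehmt1, Suv39h2 and Cbx1, as for 17.8% of all genes. Kdm3a rose 2.46-fold from pL to eL/L/Z (log2 1.17), where 4.41% of all genes were called higher. From pL to mP/lP it rose 5.27-fold (log2 2.22), where 15.6% were. Across the 9 germ cell populations its Pearson r with the writers was -0.88 for Suv39h2, -0.71 for Ehmt1, -0.67 for Ehmt2, -0.55 for Suv39h1 and -0.01 for Setdb1. The closest pair of members was Ehmt1 and Suv39h1, at 0.96. These coefficients describe 9 populations that share libraries, and were not set beside those of other pairs of genes.

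Trim28 was highest in ES, mP/lP and diff. SpG. Its RNA was 1.45 in undiff. SpG (1.37 to 1.53), 3.06 in diff. SpG (2.90 to 3.23), 1.29 in pL, 1.43 in eL/L/Z, 1.71 in L/Z/eP, 3.11 in mP/lP, 2.17 in D, 1.59 in RS and 3.48 in ES (3.25 to 3.72). It was called higher in diff. SpG than in undiff. SpG (log2 1.03, 9.57% of all genes called higher), lower in pL than in diff. SpG (log2 -1.19, 10.9% lower) and higher in ES than in RS (log2 1.08). Diff. SpG also held 6.67 summed UMIs per 10000 of the 3 elongating spermatid markers (Prm1, Prm2 and Tnp1), against 0.312 in undiff. SpG and 0.00834 in pL, where Prm2 was at 0, and 1.88 of the 3 round spermatid markers, against 0.316 and 0.0477. ES, where Trim28 was highest, held 69.1 of the former, and their part in the Trim28 steps was not tested. Relative to the median of all genes neither upward call was made (log2 0.94 in diff. SpG and 0.95 in ES). Across the 9 germ cell populations the Trim28 level had a Pearson r of 0.70 with the share of cells from 8-week-old mice, and 7.95% of all genes had an r at least as high. Over all 13 populations its r was 0.75, with 1.13% of all genes at least as high. For the other 9 genes the r over germ cell populations ran from -0.87 (Setdb1) to 0.20 (Cbx5), with -0.72 for Cbx1 and -0.67 for Cbx3. Stage, age and library cannot be told apart here, and all 3 called steps of Trim28 involve diff. SpG or ES.

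Between pL and mP/lP, 5 of the 10 genes were called lower (Ehmt1, Ehmt2, Suv39h1, Suv39h2 and Cbx3), against 19.2% of all genes, and Kdm3a and Trim28 higher, against 15.6%. The median log2 ratio of the 10 was -0.74, beside -0.16 over all genes. Over the 8 single steps there were 4 calls upward and 5 downward among 80 comparisons (5% and 6.25%), near the shares of all genes over the same steps, 5.95% and 4.86%. Without diff. SpG and ES, an alternative added after seeing the data in which pL was compared with undiff. SpG, there were 1 upward (Kdm3a) and 5 downward among 60 (1.67% and 8.33%), beside 4.86% and 2.97% of all genes, and the fifth was a call not made before, Kdm3a in pL against undiff. SpG (log2 -1.10). With eL/L/Z left out as well, also added after seeing the data, there were 1 upward and 8 downward among 50 (2% and 16%), beside 6.52% and 4.76% of all genes. In the step from pL to L/Z/eP that this makes, Kdm3a was higher (log2 1.97) and Ehmt1 (log2 -1.56), Suv39h2 (log2 -1.47), Cbx3 (log2 -1.21) and Ehmt2 (log2 -1.06) lower. The map of step ratios shows the 8 steps.

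**Figure D3:**
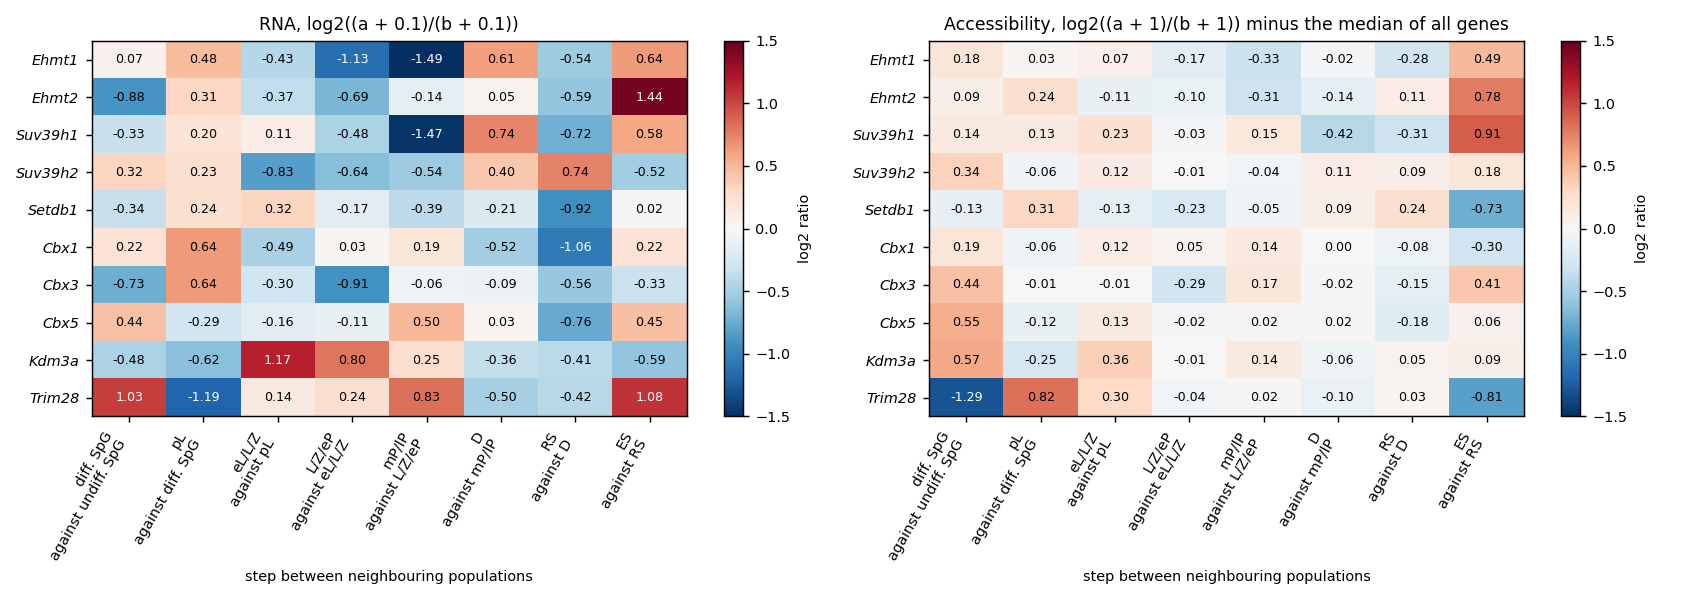
Log2 ratios of the 10 genes (rows) at the 8 steps between neighbouring germ cell populations (columns), for RNA (left) and for accessibility after subtraction of the median of all genes at that step (right); red is higher in the later population. For RNA the deepest cells are Ehmt1 and Suv39h1 at mP/lP against L/Z/eP, while accessibility at that step lies between -0.33 and 0.17.

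The wider list of 51 H3K9 and heterochromatin genes was also chosen with earlier results of these data known. It had 16 lower (31.4%) and 5 higher (9.80%) in mP/lP than in pL, beside 19.2% and 15.6% of all genes. Its median log2 ratio was -0.49, beside -0.16. Among the other writers and partners 5 of 12 were lower and none higher, including Setdb2 (log2 -1.91), a putative H3K9 methyltransferase, Prdm16 (log2 -1.86) and the EHMT partner Wiz (log2 -1.40). Among the other demethylases Kdm4d (log2 3.27) and Phf2 (log2 2.28) were higher, and Kdm7a (log2 -1.22) and the X-linked Phf8 (log2 -1.85) lower. Kdm4d RNA went from 0.189 in pL to 2.69 in mP/lP, and Phf2 from 0.146 to 1.10. With Kdm3a, 3 of the 11 H3K9 demethylases measured were higher and 2 lower.

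Among the other readers and silencing complexes Morc2b (log2 4.19, from 0.0151 to 2.002), which is known for meiotic expression, and Lrwd1 (log2 1.04) were higher, while Hells (log2 -2.40), a chromatin remodeller of heterochromatin, and the HUSH component Pphln1 (log2 -1.15) were among the 4 of 18 that were lower, a share of 22.2% and near that of all genes. In the heterochromatin and H4K20 list 5 of 11 were lower (45.5%) and 1 higher (9.09%), beside 19.2% and 15.6% of all genes. Among the lower were Cenpa (log2 -2.86), the centromeric histone, and Atrx (log2 -2.36) and Scml2 (log2 -2.27), both X-linked. The X-linked Atrx went from 2.02 in L/Z/eP to 0.410 in mP/lP, Scml2 at 1.98 and 0.605, and Phf8 at 0.853 and 0.266, at the step where Suv39h1 fell. In RS against mP/lP the wider list had 5 higher and 9 lower of 51, beside 17.6% and 9.36% of all genes, with a median of -0.42. Of the 5, Cdyl, a reader that can bind methylated H3K9, was at 2.56 against 0.252 in mP/lP, and Trim66 1.01 against 0.0602.

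For each gene the genes with the most similar RNA course over the 9 germ cell populations were sought among 10066. The closest was Mcmbp for Ehmt1 (r = 0.996), Sars for Ehmt2 (0.986), Rap1gds1 for Suv39h1 (0.988), Dis3 for Suv39h2 (0.983), Nsmce2 for Setdb1 (0.992), Cops3 for Cbx1 (0.985), Zcchc14 for Cbx3 (0.990), Uggt2 for Kdm3a (0.980) and Cox6c for Trim28 (0.994). For Cbx5 it was pi-Cbx5.1 (0.988), and next Slc25a3 (0.921). The number of genes above 0.95 ran from 398 for Ehmt1 to 5 for Trim28 and 1 for Cbx5. How these numbers compare with those of genes in general was not tested.

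Over the germ cell populations accessibility varied less than RNA for every gene but Cbx5 and Trim28. Their ranges, with 1 or 0.1 added, were 1.76-fold against 1.72-fold in RNA and 2.584-fold against 2.578-fold. The range of accessibility reached 2-fold for 5 of the 10 genes, Trim28 among them, against 72.3% of all genes, and 4-fold for none, against 20.4%. Among germ cell populations it was highest in pL for 6 genes, where 32.5% of all genes peaked, and lowest in L/Z/eP for 7, where 46.2% of all genes were lowest. Cbx3 ran from 60.7 in L/Z/eP to 144 in pL and Trim28 from 2.21 in ES to 7.30 in undiff. SpG. The Trim28 gene model of GENCODE starts at 12999114 on chromosome 7, upstream of the RefSeq start at 13024152, and the window counted for a gene in the deposited matrix is not given in the sources used here. The methods define promoter accessibility around start sites on coverage tracks, and do not say that the matrix was made so. Trim28 had a mean of 5.15 over the 13 populations, 4.50 without Sertoli cells (12.96) and 4.46 over germ cells, so it passed the minimum mean of 5 only through Sertoli cells, and its germ cell ratios rest on levels under that minimum.

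**Figure D4:**
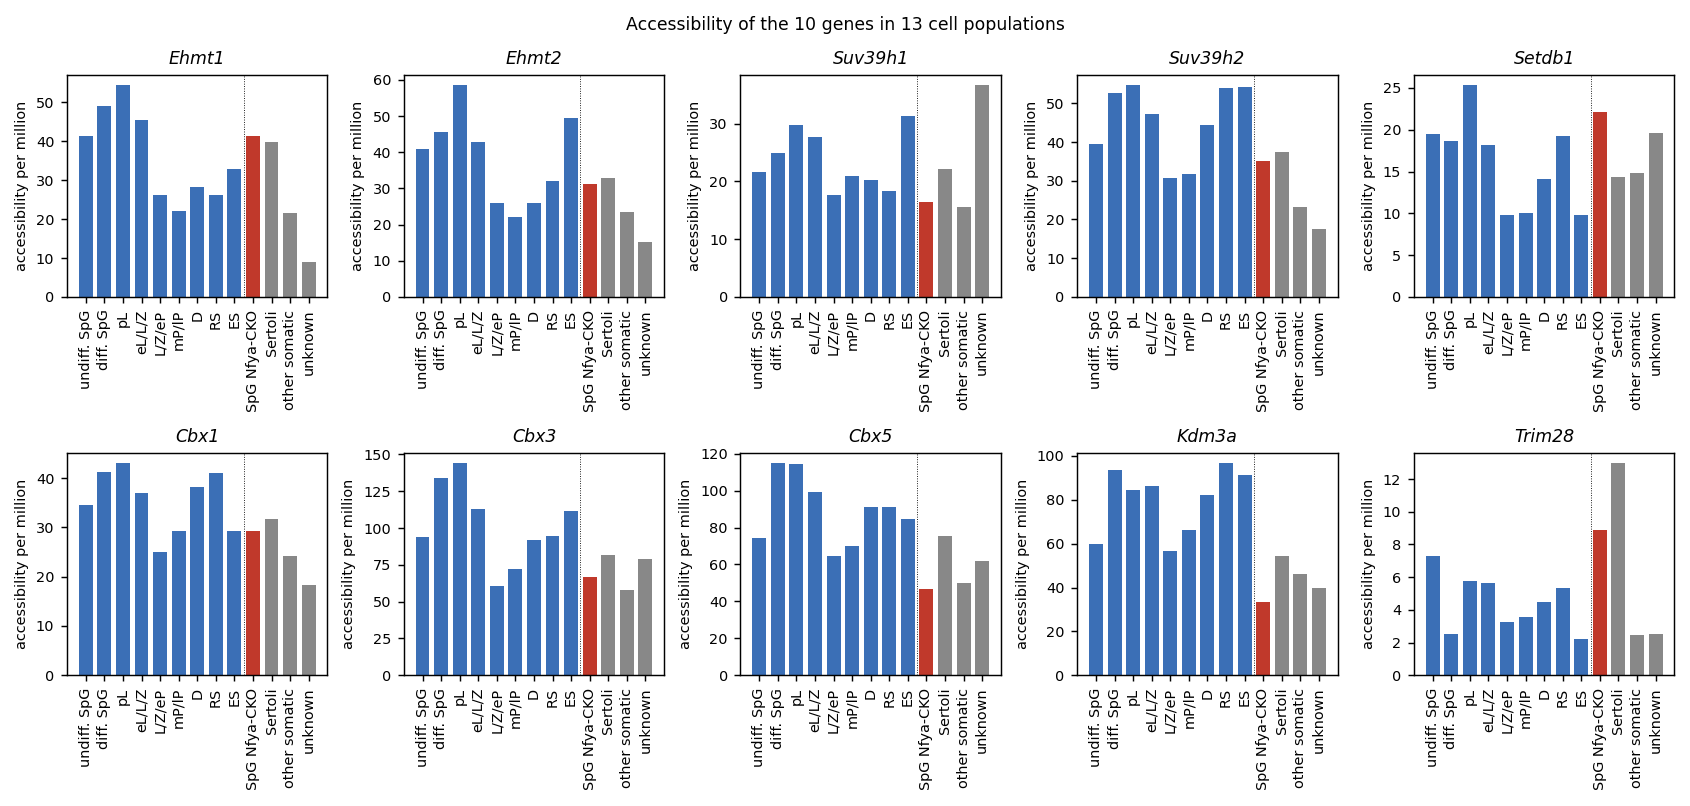
Accessibility (signal scaled to a sum of 1000000 per population, linear axis from 0, no error available) of each gene in the 13 populations, with the colours of the RNA plot. Among the germ cell populations, 4 genes (Suv39h2, Setdb1, Cbx1 and Cbx3) are highest in pL and lowest in L/Z/eP, as Cbx3 is at 144 and 60.7. Over all 13 populations Kdm3a has its lowest value, 33.4, in SpG Nfya-CKO.

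At the step to L/Z/eP, 9 of the 10 genes were called lower than in eL/L/Z, with log2 ratios of -0.60 to -0.89. The 9 include Trim28, which passed the minimum only through Sertoli cells. But 51.7% of all genes were called lower too, with a median of -0.60 over all genes. The mitochondrial share of the signal was 45.4% in eL/L/Z and 63.8% in L/Z/eP. Relative to that median the 10 genes lay between -0.29 (Cbx3) and 0.05 (Cbx1). The fall of Ehmt1 RNA from L/Z/eP to mP/lP had an accessibility of 26.2 and 22.0 beside it, and that of Suv39h1 one of 17.6 and 20.9. Apart from that step 8 calls were made, those of Trim28 included, all of them at steps with diff. SpG or ES. The Trim28 calls below come from a gene under the minimum in germ cells and are not read as changes. In diff. SpG against undiff. SpG, Kdm3a (93.5 against 59.9) and Cbx5 (115 against 74.6) were higher, where 9.43% of all genes were, and Trim28 (2.54 against 7.30) lower, where 18.4% were. Trim28 was higher again in pL (5.77), with 7.46% of all genes. In ES against RS, Ehmt2 (49.6 against 32.2) and Suv39h1 (31.3 against 18.3) were higher, with 10.7% of all genes, and Setdb1 (9.84 against 19.2) and Trim28 (2.21 against 5.34) lower, with 24.9%. The ES values rest on 124 cells.

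Over the 9 populations RNA and accessibility had a Pearson r of 0.92 for Ehmt1, 0.72 for Ehmt2 and 0.62 for Suv39h2, and between -0.02 (Cbx1) and 0.35 (Suv39h1) for Suv39h1, Setdb1, Cbx1, Cbx3 and Cbx5. It was -0.49 for Kdm3a (0.098 over all 13 populations), whose accessibility was 84.6 in pL, where its RNA was lowest, and 66.3 in mP/lP, where its RNA was highest. For Trim28, under the minimum in germ cells, it was -0.86, with 2.54 in diff. SpG and 2.21 in ES, where its RNA was high.

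In SpG Nfya-CKO no member was called against undiff. SpG in RNA, where 4.09% of all genes were called higher and 3.08% lower. Trim28 came closest, at 2.93 (2.81 to 3.05) against 1.45 (log2 0.97). Cbx3 was at 0.468 (0.421 to 0.518) against 0.872 (log2 -0.78), Cbx1 at 1.004 against 1.48 (log2 -0.52) and Kdm3a at 1.01 (0.938 to 1.08) against 1.42 (log2 -0.45). The writers lay between log2 -0.28 (Setdb1, 2.24 against 2.74) and 0.32 (Ehmt1, 4.51 against 3.59). With 0.01 added in place of 0.1, Trim28 passed 2-fold. Against diff. SpG Trim28 had a log2 ratio of -0.06, and Ehmt2 of 0.87 (2.25 against 1.19). Diff. SpG is not an independent control for RNA, since 143 of its low-count cells share a barcode with a SpG Nfya-CKO cell. The 491 SpG Nfya-CKO cells held 49.3 summed UMIs per 10000 of the 5 Leydig markers, 39.8 of them from Insl3, against 0.208 in undiff. SpG. They held 24.6 of the 5 Sertoli markers, 22.8 of them from Clu, against 3.90. No marker was at 0 in either population, and their part in these ratios was not tested.

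In accessibility Kdm3a and Cbx5 were called lower, where 6.38% of all genes were, and none higher, where 3.22% were. Kdm3a went from 59.9 to 33.4 (log2 -0.82), the lowest ratio of the members, and 1.23% of all genes had a ratio as low. That share is not a test, since the gene was picked as the lowest. The SpG Nfya-CKO value of Kdm3a was the lowest of the 13 populations. Cbx5 went from 74.6 to 46.8 (log2 -0.66). With mitochondrial genes left out, or relative to the median of all genes (-0.13), Kdm3a was still called and Cbx5 was not. Against diff. SpG, 29.1% of all genes were called lower and 21.7% higher. There Kdm3a (log2 -1.46), Cbx5 (log2 -1.28) and Cbx3 (log2 -0.996) were lower. Trim28, which passed the minimum only through Sertoli cells, was higher (log2 1.48). Next came Cbx3 against undiff. SpG, at 94.0 and 66.6 (log2 -0.49). Ehmt2 and Suv39h1 followed (both log2 -0.37), while Ehmt1 (log2 0.01), Setdb1 (log2 0.17) and Trim28 (log2 0.25) lay at or above 0.

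Kdm3a and Cbx5 are also 2 of the 4 genes with a CCAAT or ATTGG match in a promoter shown above. The others, Suv39h1 (log2 -0.37) and Setdb1 (log2 0.17), were not called, and Cbx3, without a match, was at -0.49. Among the tested genes that were sorted by a match, the median log2 ratio was -0.21 for the 5326 with a match and -0.10 for the 7441 without. These are only part of the 18240 genes tested. Whether a match bears on the change in accessibility was not tested. The populations also differed in median TSS enrichment, 7.82 in SpG Nfya-CKO and 12.5 in undiff. SpG, and in the mitochondrial share of the signal, 46.0% and 40.6%. Genotype, age and library cannot be told apart, since undiff. SpG came mostly from the younger wild-type mice.

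**Figure D5:**
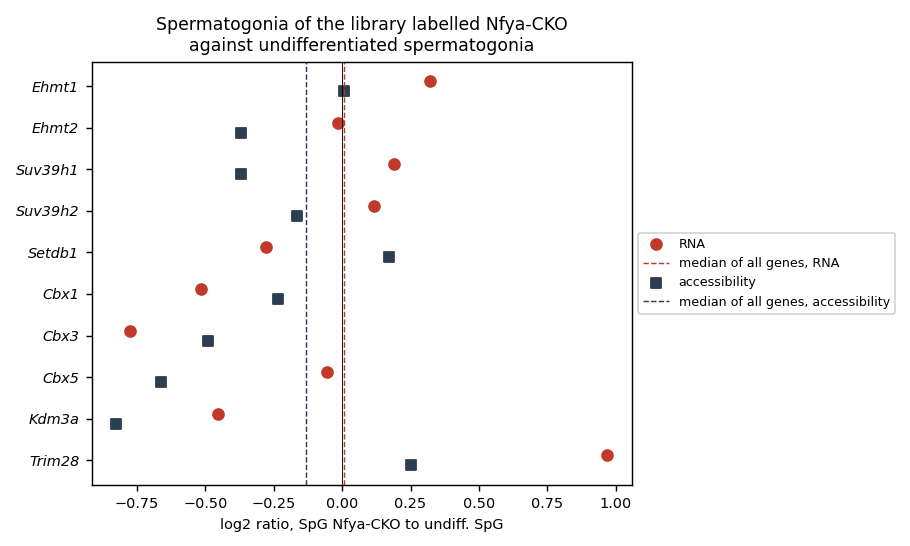
Log2 ratio of SpG Nfya-CKO to undiff. SpG for RNA (red circles) and accessibility (dark squares) of the 10 genes, with the medians of all genes tested as dashed lines; each point compares a pair of pooled populations without replicates. In accessibility Kdm3a (-0.82) and Cbx5 (-0.66) lie furthest left, and in RNA Trim28 (0.97) furthest right.

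In the wider list, Hmga1 (log2 -1.77, RNA 0.354 against 1.45), Kdm4d (log2 -1.32), Atf7ip (log2 -1.08), a partner of SETDB1, and Kmt5c (log2 -1.05), an H4K20 methyltransferase, were called lower and Kdm4b (log2 1.05) higher, 5 of 51 genes, with a median of -0.19. These are 7.84% lower and 1.96% higher, beside 3.08% and 4.09% of all genes. In accessibility 6 of 47 (12.8%, beside 6.38% of all genes) were called lower and none higher, namely Kmt5b (log2 -0.81), Cenpa (log2 -0.79), Kmt5c (log2 -0.77), Uhrf1 (log2 -0.76), Kdm4a (log2 -0.72) and Chaf1a (log2 -0.66). Kmt5c was the gene called lower in both assays.

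Sertoli cells, 87.8% of them from the 11 dpp library, served as a somatic reference. Against undiff. SpG 6 of the 10 genes were called lower in RNA, against 16.9% of all genes, namely Ehmt2 (0.643 against 2.28, log2 -1.68), Suv39h1 (0.390 against 1.18, log2 -1.38), Cbx3 (0.322 against 0.872, log2 -1.20), Setdb1 (1.18 against 2.74, log2 -1.15), Kdm3a (0.652 against 1.42, log2 -1.01) and Suv39h2 (0.226 against 0.556, log2 -1.01). None was called higher, where 10.1% of all genes were. Ehmt1 stood at 3.48 against 3.59 (log2 -0.04), so its ratio to Ehmt2 was 3.43 times that of undiff. SpG. Relative to the median of all genes, which was -0.29, only Ehmt2 and Suv39h1 stayed 2-fold lower. The wider list held 19 genes lower (37.3%) and 2 higher (3.92%) of 51, and the higher genes, Kdm7a (log2 2.33) and Phf8 (log2 1.48), are both demethylases.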

How the data were processed

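Nuclei of 5 conditions were measured, with 1 library per condition and assay. The authors aligned scRNA-seq reads with STAR 2.7.10b and scATAC-seq reads with BWA 0.7.12 to mm10, and filtered and named cells with Seurat 5.2.1 and ArchR 1.0.3, with limits of 500 genes, 5% mitochondrial UMIs, 1000 fragments and a TSS score of 4, and removed doublets. The authors deposited, for each cell, a count of UMIs or fragments and the percent of mitochondrial UMIs, and TSS enrichment as a ratio. They also deposited a natural log matrix of pooled values per assay. From the values, RNA is the log of 1 plus the mean over cells of UMIs per 10000, and accessibility, summing to 10000, was scaled to 1000000. No table column of per-sample values beyond those mapped to libraries was used, and 22 were left out.

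Pooled columns were compared by size alone, without p-values, in Python 3.11.15 (scipy 1.17.1, pandas 2.3.3, numpy 2.4.6). Genes below a mean of 0.05 (RNA) or 5 (accessibility) were not tested. Poisson intervals used the number of cells times the harmonic mean of UMIs per cell, not the population total as designed, because levels are means over cells. The depth behind a population was thus 2.50e+06 (ES) to 3.00e+07 (mP/lP) UMIs, and 2.29e+05 for the unnamed cells. Cell names are the authors'. Positions are GENCODE and RefSeq on GRCm38, the assembly of mm10. All members were named, examples from the called genes of the wider list, of which 1 is not reported here, and the genes of highest r. The rule was tested on simulated data. Members and lists were chosen with earlier results of these data known. Bulk assays were not analysed here.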

Additional observations from a re-analysis of the deposited data

How the results depend on the processing

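The 34 member ratios called at the single steps, in Sertoli cells and in SpG Nfya-CKO against undiff. SpG kept their sign under every alternative run for them. Of 259 such values, 246 stayed within 1.5-fold of the reported ratio, 13 moved further and none changed sign. The 246 include settings that change only the threshold or the filter, which leave a ratio as it was by construction. A changed pseudocount cannot change a sign either. These totals thus overstate how far the ratios were tried. The calls over longer spans, mP/lP against pL and RS against mP/lP, were not run under the alternatives. Counts of calls depended on the threshold and the scale. In parentheses are the shares of all genes, up and down. For the RNA steps, 4 up and 5 down (5.95% and 4.86%) became 0 and 1 with a pseudocount of 0.5 (1.40% and 1.20%), 12 and 17 at 1.5-fold (14.5% and 13.4%) and 2 and 4 after centring (5.85% and 4.79%). Leaving out diff. SpG and ES gave 1 and 5 (4.86% and 2.97%), and leaving out eL/L/Z too gave 1 and 8 (6.52% and 4.76%), both chosen after seeing the data. For RNA of SpG Nfya-CKO, 0 and 0 (4.09% and 3.08%) became 1 and 0 with a pseudocount of 0.01 (10.2% and 9.60%), and 1 and 1 at 1.5-fold (12.5% and 10.5%). For Sertoli cells, 6 down (16.9%) became 1 with a pseudocount of 0.5 (3.93%) and 2 after centring (9.51%). For the accessibility steps, 5 up and 12 down (7.63% and 15.0%) became 3 and 6 with a pseudocount of 5 (3.43% and 8.89%), 3 and 3 without mitochondrial genes (5.40% and 7.99%) or after centring (5.56% and 6.44%), 0 and 1 at 2-fold (1.41% and 3.30%) and 16 and 17 at the lower limit tried (23.0% and 27.7%). Without diff. SpG and ES there were 2 and 9 (6.86% and 13.4%), and without eL/L/Z too 2 and 9 (8.25% and 17.9%). The main accessibility counts hold the Trim28 calls, lower in diff. SpG, L/Z/eP and ES and higher in pL. Its mean over germ cells was under the minimum, and counts without it were not made. For accessibility of SpG Nfya-CKO, 2 down (6.38%) became 1 without mitochondrial genes (2.92%) or after centring (2.61%), 0 at 2-fold (0.312%) and 5 at the lower limit (26.7%). With diff. SpG as control 1 gene (Trim28) was up (21.7%) and 3 were down (Kdm3a, Cbx5 and Cbx3, 29.1%), and with its mean with undiff. SpG the same genes were (9.80% and 18.3%). Here too Trim28 passed the minimum only through Sertoli cells. Removing the filter on low values could not change a member's call, since every member had passed it. The cause of these moves is the setting's own construction for thresholds and pseudocounts, and otherwise was not tested. No paired analysis was possible because each condition is 1 library and the matrices are pooled. Depth limits the unnamed cells most, and accessibility values carry no counts. ES accessibility rests on 124 cells.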
